A study of Mus musculus with 25 samples.

Results

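The mRNAs of 10 heat shock proteins of the cytosol and the mitochondrion were followed in the hearts of 25 mice. The genes are Hspa1a, Hspa1b, Hspa8, Hsp90aa1, Hsp90ab1, Hsph1, Dnajb1, Hspb1, Hspd1 and Hspe1. They were chosen by symbol, and the transcripts that GENCODE mouse release M21 assigns to each symbol were summed. All 10 genes were found among the 35969 genes of the table, and 8 of the 10 passed the filter on low values, which left 11983 genes for testing. Hspa1a and Hspa1b fell under that filter.

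The tissue is labelled heart, and the extraction protocol in the labels names left ventricular tissue, from male mice, 5 in each of 5 groups, which entered the diets at 8 to 10 weeks of age and stayed on them for 16 weeks. WT CNTL and GPx4+/- CNTL mice ate normal chow with 6% of energy as fat. WT HFHS and GPx4+/- HFHS mice ate a high fat high sucrose diet with 35.5% of energy as lard-based fat and 38% as sucrose, plus cholesterol. WT HFHS + Carnosine mice ate the same HFHS diet and drank 80 mM carnosine, a histidine-containing dipeptide, from week 7. GPx4+/- mice are heterozygous for Gpx4, which encodes glutathione peroxidase 4, and were littermates of the WT mice, in a line maintained by backcross to C57BL6/J. Carnosine was given to WT mice only in the libraries analysed here. Per the study's methods, mice were fasted and then injected with dextrose or with saline alone before the hearts were taken. The labels do not say which injection a mouse had, so its part in any value was not tested. Values are scaled TPM, that is, TPM corrected for transcript length and then divided by a median-ratio factor per library, so that levels of different genes can be set side by side.

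Heat shock proteins are molecular chaperones that bind unfolded or partly folded proteins and let them refold, mature or be degraded. HSP70 proteins work in a cycle of ATP hydrolysis that J-domain proteins start and nucleotide exchange factors end, HSP90 proteins finish the folding of kinases, receptors and other clients, small heat shock proteins hold unfolded proteins without ATP, and the chaperonin of HSP60 and HSP10 folds proteins imported into mitochondria. Some of these genes are expressed at all times and others mainly after heat, oxidative stress or ischemia, through heat shock factor 1 bound to inverted GAA repeats in their promoters, and cardiomyocytes hold large amounts of several of them.

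RefSeq promoter windows of build GRCm38.p6, from 250 bases before to 50 bases after a start site, were at hand for 7 of the 10 genes (Hspa1a, Hspa1b, Hsph1, Dnajb1, Hspb1, Hspd1 and Hspe1). The 4 windows below are shown because they carry the inverted repeats that heat shock factors bind, and because the last of them lies where the starts of Hspd1 and Hspe1 meet head to head. Capitals mark every match to a unit of 2 repeats, GAANNTTC or TTCNNGAA, each of which reads the same on both strands.
Hspa1a: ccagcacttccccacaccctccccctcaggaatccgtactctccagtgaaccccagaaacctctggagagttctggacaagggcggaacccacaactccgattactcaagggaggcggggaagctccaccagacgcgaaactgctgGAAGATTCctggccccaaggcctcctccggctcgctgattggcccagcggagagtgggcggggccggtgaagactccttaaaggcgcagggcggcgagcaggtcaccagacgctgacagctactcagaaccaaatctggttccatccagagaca
Hsph1: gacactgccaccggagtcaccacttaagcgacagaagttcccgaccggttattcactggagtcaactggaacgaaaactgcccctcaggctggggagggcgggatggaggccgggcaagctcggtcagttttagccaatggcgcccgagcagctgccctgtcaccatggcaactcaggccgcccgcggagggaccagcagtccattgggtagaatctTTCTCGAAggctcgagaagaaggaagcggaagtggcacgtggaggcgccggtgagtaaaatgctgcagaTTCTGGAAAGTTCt
Hspb1: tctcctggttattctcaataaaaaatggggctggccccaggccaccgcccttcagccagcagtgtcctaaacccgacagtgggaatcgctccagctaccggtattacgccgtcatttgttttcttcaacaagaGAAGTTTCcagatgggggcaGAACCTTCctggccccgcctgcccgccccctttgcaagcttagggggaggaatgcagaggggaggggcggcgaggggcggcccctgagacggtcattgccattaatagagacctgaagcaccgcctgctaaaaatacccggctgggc
Hspe1: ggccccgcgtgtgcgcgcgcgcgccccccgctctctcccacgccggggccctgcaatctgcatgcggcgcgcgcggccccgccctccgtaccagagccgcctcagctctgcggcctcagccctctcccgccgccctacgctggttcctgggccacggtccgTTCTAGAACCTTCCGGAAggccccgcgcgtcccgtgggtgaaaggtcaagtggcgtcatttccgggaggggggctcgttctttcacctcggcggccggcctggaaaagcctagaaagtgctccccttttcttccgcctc
The windows lie at chr17:34972107-34972406 (minus strand, Hspa1a), chr5:149636287-149636586 (minus strand, Hsph1), chr5:135887669-135887968 (plus strand, Hspb1) and chr1:55087898-55088197 (plus strand, Hspe1).

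A unit of 2 repeats was found for 6 of the 7 genes, in 7 of their 10 windows, and in 15.1% of all 32851 mouse promoter windows of the same length. Overlapping units that make up a run of at least 3 repeats (GAANNTTCNNGAA or TTCNNGAANNTTC) were found for Hsph1, Hspd1 and Hspe1, and in 0.603% of all windows. In Hspa1a the unit starts 104 bases before the start site, and the Hspa1b window at the same distance has the same unit, the windows being identical at 296 of 300 bases. In Hspb1 the units start 117 and 97 bases before the start site, and in Hspe1 they start 89, 84 and 79 bases before it. Hspd1 and Hspe1 lie head to head on chromosome 1, and a window of Hspd1 shares 285 bases with that of Hspe1, so the same run of repeats lies upstream of the Hspe1 start and of that Hspd1 start. The window of the other Hspd1 start has no unit. No unit was found in either Dnajb1 window. A match is a description of the letters and does not show that a factor binds.

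In the libraries, Gpx4 checked the genotypes, since every GPx4+/- library (250.3 to 382 scaled TPM) lay below every WT library (590.0 to 777). All 6 ventricular cardiomyocyte markers were above the filter, with summed levels of 41585 to 52178. Atrial markers (Myl7, Nppa, Sln, Myl4, Bmp10) were not even between mice. Their sum was 4561 in WT CNTL replicate 3, 7339 in GPx4+/- CNTL replicate 1, 1480 in GPx4+/- CNTL replicate 2 and 2692 in GPx4+/- HFHS replicate 4, against 30.6 to 579.6 in the other mice, and liver markers summed to 946 in GPx4+/- CNTL replicate 2. In whole tissue, fewer cells of a type and less RNA per cell cannot be told apart.

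The constitutive HSP70 and HSP90 genes had the highest levels of the set. Hspa8, the constitutive HSP70 of the cytosol (ENSMUSG00000015656.17, chr9:40800984-40810087, plus strand; GRCm38 here and below), had the highest level at 981 ± 121 scaled TPM (SD, n = 25), above 99.3% of the genes tested. Hsp90ab1, the constitutive HSP90 (ENSMUSG00000023944.14, chr17:45567775-45573271, minus strand), followed at 642 ± 24.2. The small heat shock protein gene Hspb1 (ENSMUSG00000004951.10, chr5:135887919-135889563, plus strand) at 206 ± 31.5 and the mitochondrial HSP60 gene Hspd1 (ENSMUSG00000025980.14, chr1:55077835-55088243, minus strand) at 190.4 ± 12.1 came next. Their ranges overlapped, and Hspb1 lay above Hspd1 in 18 of 25 mice. Hspe1, the gene of the HSP10 lid of the same chaperonin (ENSMUSG00000073676.4, chr1:55088132-55091307, plus strand), had 101 ± 8.41.

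The other 5 members lay lower. Hsp90aa1, the inducible HSP90 (ENSMUSG00000021270.13, chr12:110690605-110702728, minus strand), had 66.3 ± 17.0 scaled TPM, and Hsph1, which encodes an HSP110 nucleotide exchange factor (ENSMUSG00000029657.15, chr5:149614287-149636376, minus strand), 21.4 ± 5.51. Dnajb1, the J-domain partner of HSP70 (ENSMUSG00000005483.10, chr8:83608193-83612653, plus strand), had 4.81 ± 0.410. The inducible HSP70 genes Hspa1a (ENSMUSG00000091971.3, chr17:34969190-34972156, minus strand) and Hspa1b (ENSMUSG00000090877.3, chr17:34956436-34959238, minus strand) had only 0.912 ± 0.256 and 0.751 ± 0.267 (SD, n = 25), and together amounted to 0.170% ± 0.0434 of the Hspa8 level. Of the 9 pairs of neighbours in this order, 5 had ranges over the 25 mice that did not overlap. The 4 pairs that overlapped were Hspb1 and Hspd1, Hspe1 and Hsp90aa1 (Hspe1 above in 24 of 25 mice), Hsp90aa1 and Hsph1 (Hsp90aa1 above in 25 of 25 mice) and Hspa1a and Hspa1b (Hspa1a above in 17 of 25 mice).

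**Figure D1:**
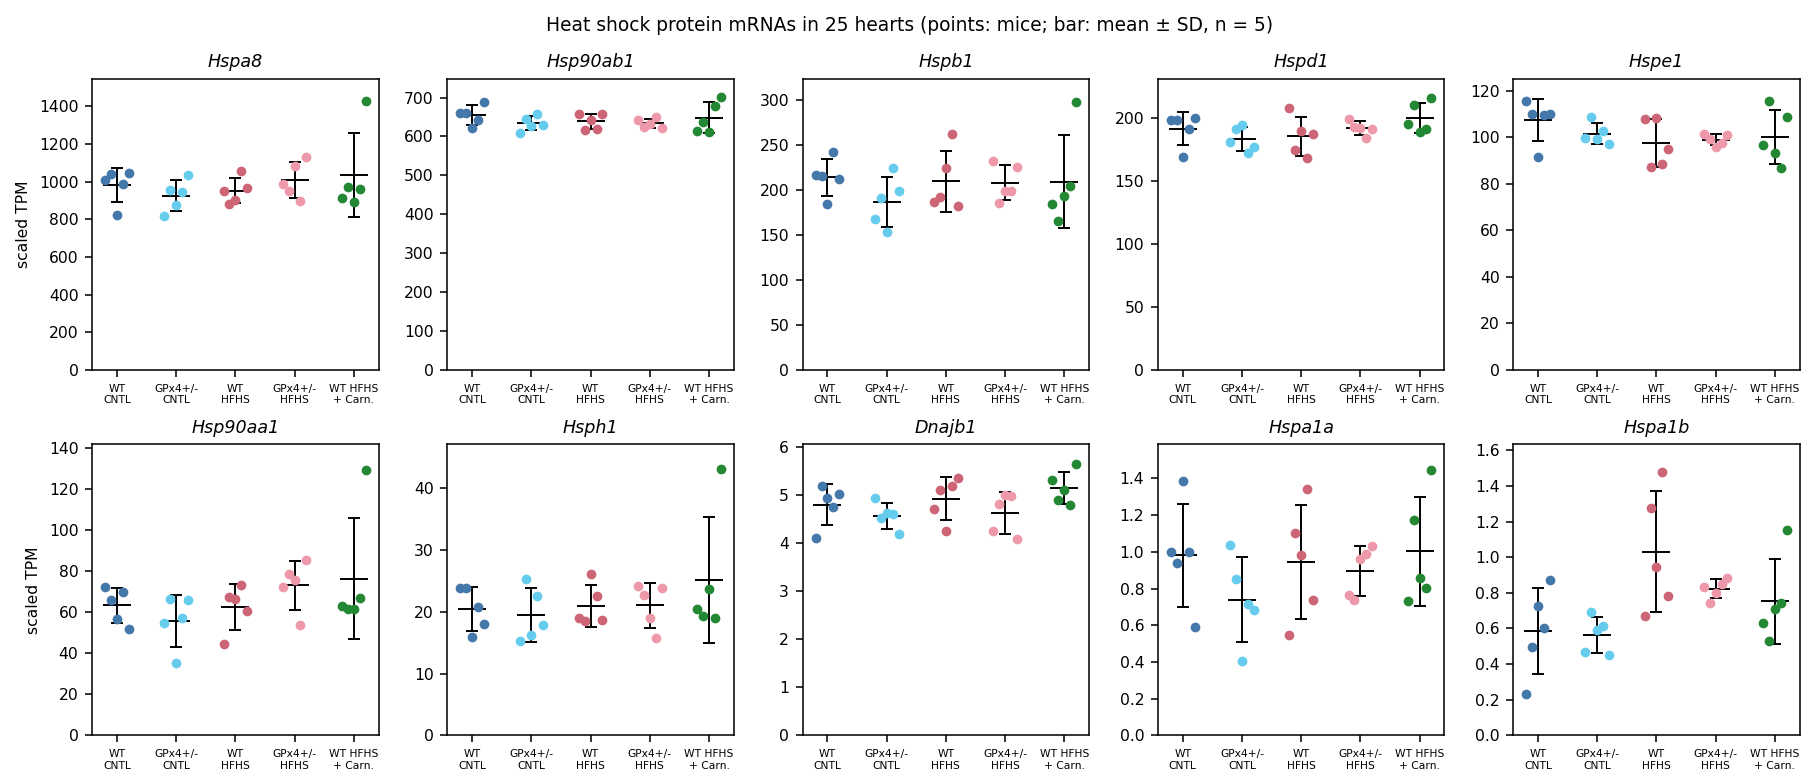
Scaled TPM (linear axes from 0, a separate scale for each gene) of the 10 heat shock genes in the 5 groups, with a point per mouse and a bar for the mean ± SD (n = 5). In 8 of the 10 panels the highest of the 25 points is replicate 5 of the WT HFHS + Carnosine group, while the group means lie close together in most panels.

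By group, Hspa8 had means of 981 ± 90.7 for WT CNTL, 926 ± 82.4 for GPx4+/- CNTL, 952 ± 67.2 for WT HFHS, 1011 ± 95.05 for GPx4+/- HFHS and 1034 ± 222 for WT HFHS + Carnosine (scaled TPM, SD, n = 5). Hsp90ab1 had 655 ± 25.1, 634 ± 18.3, 639 ± 19.8, 634 ± 12.0 and 648 ± 39.6 in the same order. Neither gene had groups that stood clear of each other. Hspb1, whose product protects actin filaments, had 214 ± 20.5, 187 ± 27.9, 209.8 ± 33.7, 208 ± 19.5 and 209 ± 51.6 in that order. Hspd1 had 191 ± 13.0, 183 ± 9.36, 185 ± 15.3, 192 ± 5.39 and 200.1 ± 11.9. The ratio of Hspd1 to Hspe1 over the 25 mice was 1.89 ± 0.122 (SD), with group means from 1.79 in WT CNTL to 2.01 in WT HFHS + Carnosine. Hsph1 had 20.5 ± 3.51, 19.5 ± 4.31, 21.0 ± 3.36, 21.1 ± 3.63 and 25.1 ± 10.2, and Dnajb1 had 4.80 ± 0.416, 4.57 ± 0.269, 4.92 ± 0.444, 4.62 ± 0.427 and 5.14 ± 0.336. Hsp90aa1 stood at 10.3% ± 2.46 of the Hsp90ab1 level (SD, n = 25), and at 5.64% to 18.4% of it in single mice.

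Transcript assignment bears on these sums. Hsp90ab1-201 carried 99.3% of the Hsp90ab1 level and Hspd1-201 carried 89.1% of the Hspd1 level. In Hspa8, however, the protein coding transcript Hspa8-201 carried 53.3%, and the short processed transcripts Hspa8-203 and Hspa8-209 carried 18.4% and 10.0%. In Hsp90aa1, Hsp90aa1-201 carried 46.8%, Hsp90aa1-202 26.2% and the retained intron transcript Hsp90aa1-204 16.8%. Processed pseudogenes and another copy that align to Hspa8, Hsp90aa1, Hspb1, Hspd1 or Hspe1 at 95% identity or more were listed at 0.152% to 0.713% of the level of the gene they resemble. The pair Hspa1a and Hspa1b is different, since their transcripts are 99.2% identical over 2201 aligned bases and lie at similar levels, so the split of reads between them is uncertain. The genes of Hspd1 and Hspe1 overlap by their first exons on opposite strands.

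The members differed widely in how much mice of a group varied. Hsp90ab1 had a within-group coefficient of variation of 3.86%, and 0.668% of the tested genes had a lower one. Hspd1 had 6.05%, Dnajb1 7.99% and Hspe1 8.30%, against a median of 10.9% over all tested genes. Hsp90aa1 and Hsph1 varied more, with 25.0% for Hsp90aa1 and 26.4% for Hsph1, and 90.1% of the tested genes varied less than Hsph1. Hspa8 had 12.7% and Hspb1 15.9%. Much of this spread came from 1 mouse. Without WT HFHS + Carnosine replicate 5 the coefficient was 16.2% for Hsp90aa1, 17.2% for Hsph1, 8.20% for Hspa8 and 12.3% for Hspb1.

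The first comparison asked whether the HFHS diet moved these genes in WT hearts. None of the 8 members tested was called in HFHS against CNTL in WT (limma, adjusted p under 0.05), where 1.19% of the 11983 genes tested were called. At an unadjusted p under 0.05, 1 of 8 members passed, against 16.5% of all genes tested. That gene was Hspe1, at 108, 87.3, 108, 88.5 and 94.97 scaled TPM in the WT HFHS mice and 116, 109.9, 91.6, 109 and 110.0 in the WT CNTL mice. The groups overlapped, with a WT HFHS mean of 97.4 ± 10.2 and a WT CNTL mean of 107 ± 9.15 (SD, n = 5). Its log2 fold change was -0.14, SE 0.0654, with an adjusted p of 0.286 (limma), and its exact permutation p was 0.127. WT CNTL replicate 3, high in atrial markers, was the lowest WT CNTL value of Hspe1, and without the 4 mice high in atrial markers the log2 fold change was -0.20, adjusted p 0.105 (limma). The log2 fold changes of the other 7 members lay between -0.05 (Hspd1) and 0.04 (Hsph1). Without WT CNTL replicate 3, Hspa8 was at -0.10, Hspd1 at -0.09 and Hsph1 at -0.04. The 95% confidence interval was narrowest for Hsp90ab1, -0.11 to 0.04, and widest for Hsp90aa1, -0.37 to 0.32. The median log2 fold change of the 8 members was -0.04, and that of all genes tested was 0.00.

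In GPx4+/- hearts the inducible HSP90 gene Hsp90aa1 had the largest log2 fold change on HFHS diet among the 8 genes over the filter, and none of the 8 passed the adjusted threshold. In HFHS against CNTL in GPx4+/-, 0 of 8 members were called by limma, where 3.34% of all genes tested were called, and 1 of 8 passed an unadjusted p under 0.05, against 18.4%. Hsp90aa1 was at 72.1, 78.9, 75.7, 53.8 and 85.7 scaled TPM in the GPx4+/- HFHS mice and at 54.7, 66.7, 35.4, 57.1 and 66.01 in the GPx4+/- CNTL mice. The 4 higher GPx4+/- HFHS mice lay above every GPx4+/- CNTL mouse, and GPx4+/- HFHS replicate 4 lay among them. The means were 73.3 ± 11.9 and 56.0 ± 12.7 (SD, n = 5), the log2 fold change was 0.40, SE 0.165, 95% confidence interval 0.06 to 0.75, and the limma p was 0.0241 before and 0.190 after adjustment. The exact permutation p was 0.0556. GPx4+/- CNTL replicate 3 had the lowest Hsp90aa1 of all 25 mice, and without it the log2 fold change was 0.25 (limma, adjusted p = 0.425). That mouse was lowest of the 25 in 3 of 10 members, and highest in 8.77% and lowest in 8.80% of all genes tested. GPx4+/- HFHS replicate 4 is 1 of the 4 mice high in atrial markers, and without those 4 the log2 fold change was 0.60 (limma, adjusted p = 0.107). That setting leaves GPx4+/- CNTL replicates 3, 4 and 5, at 35.4, 57.1 and 66.01, so replicate 3 weighs more in it.

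The other members in GPx4+/- hearts gave log2 fold changes from -0.04 (Hspe1) to 0.16 (Hspb1). Hspa8 was at 0.13, 95% confidence interval -0.04 to 0.29, and Hsp90ab1 at 0.00, interval -0.08 to 0.08. Of the 8 members, 7 were above 0 with a median of 0.09, but on TPM as deposited only 4 of 8 were above 0 and the median was -0.01, and that scale moved the median of all genes in this comparison to -0.10. Over both genotypes, 0 of 8 members were called (limma), against 8.33% of all genes, and 0 of 8 had an unadjusted p under 0.05, against 24.5%. Their log2 fold changes ran from -0.09 (Hspe1) to 0.19 (Hsp90aa1, 0.11 without GPx4+/- CNTL replicate 3). Hspe1 was at -0.14 on TPM as deposited (limma, adjusted p = 0.0713) and at -0.12 without WT CNTL replicate 3 (adjusted p = 0.0849). Without the 4 mice high in atrial markers, Hspe1 (-0.10) and Hsp90aa1 (0.27) had an unadjusted p under 0.05 (limma, adjusted p 0.196 and 0.203). In that setting, which keeps GPx4+/- CNTL replicate 3, none of the 8 was called. The 24.5% is from the full fit, and the share of all genes in this setting is not given here.

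Whether the diet difference itself differed between genotypes was tested as an interaction. No gene of the 11983 passed the adjusted threshold (0%), 7.14% of all genes had an unadjusted p under 0.05, and 0 of 8 members did (limma). The largest value was that of Hsp90aa1, 0.43, SE 0.233, 95% confidence interval -0.05 to 0.92, adjusted p 0.702 (limma). Without the 4 mice high in atrial markers, a setting that keeps GPx4+/- CNTL replicate 3, it was 0.67, adjusted p 0.433 (limma). Without GPx4+/- CNTL replicate 3 it was 0.28, adjusted p 0.837 (limma). Hspa8 was at 0.17, Hspd1 at 0.11 and Hspe1 at 0.10. Without the 4 mice high in atrial markers these were at 0.23, 0.19 and 0.19. In that setting Hsp90aa1, Hspa8 and Hspd1 had an unadjusted p under 0.05 (limma, adjusted p 0.433, 0.479 and 0.486). Without WT CNTL replicate 3 alone, Hspa8 (0.23) and Hspd1 (0.16) did (limma, adjusted p 0.487 and 0.501). The 7.14% is from the full fit, and the shares of all genes in these settings are not given here. None of the 8 was called after adjustment in either setting (limma, adjusted p of at least 0.433).

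**Figure D2:**
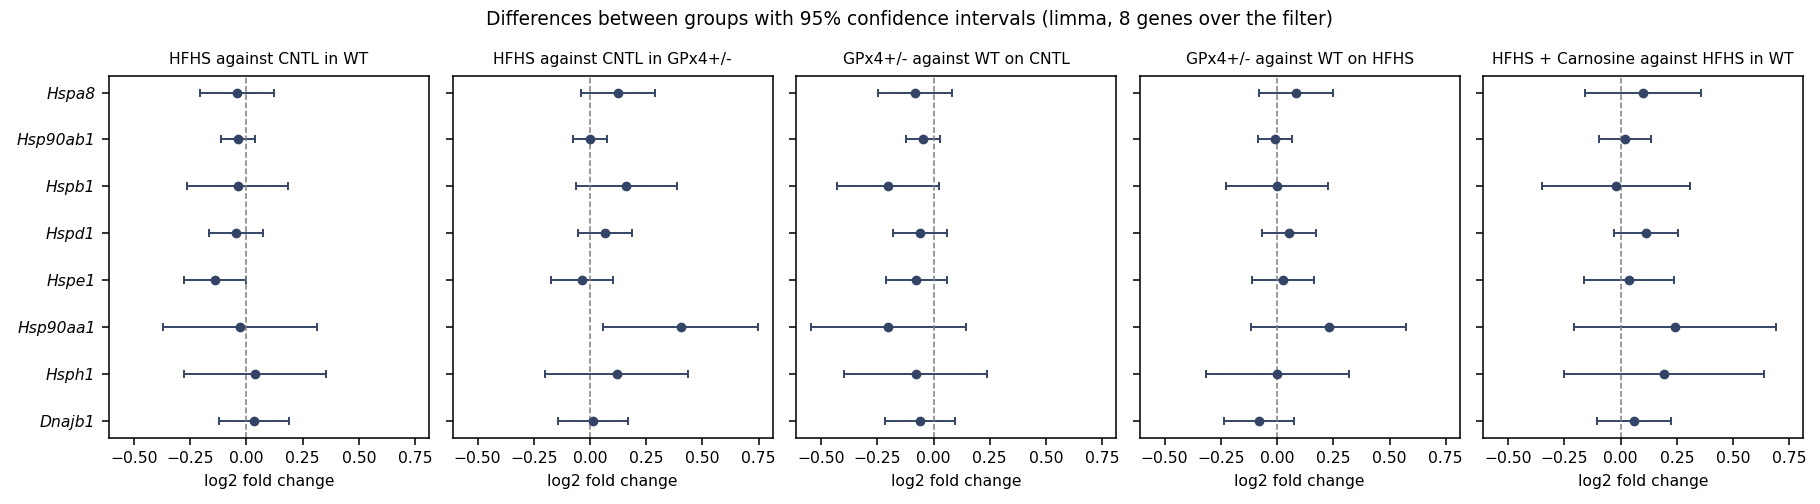
Log2 fold changes with 95% confidence intervals (limma) of the 8 heat shock genes over the filter, in 5 comparisons, with a dashed line at 0. Intervals are narrow for Hsp90ab1 and wide for Hsp90aa1 and Hsph1, and only Hspe1 in WT and Hsp90aa1 in GPx4+/- have intervals for HFHS against CNTL that leave out 0.

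The inducible HSP70 pair lay under the filter, and Hspa1b was the only member with groups that did not overlap, in HFHS against CNTL in GPx4+/-, where 2.48% of 25881 genes did not overlap. Hspa1b was at 0.834, 0.743, 0.801, 0.8501 and 0.884 scaled TPM in the GPx4+/- HFHS mice and at 0.468, 0.690, 0.593, 0.614 and 0.452 in the GPx4+/- CNTL mice. Every GPx4+/- HFHS mouse lay above every GPx4+/- CNTL mouse, and the exact permutation p was 0.00794, the smallest that 5 against 5 mice allow. In WT it was at 0.668, 1.28, 0.944, 1.48 and 0.785 on HFHS and at 0.231, 0.498, 0.726, 0.602 and 0.873 on CNTL, the groups overlapped, and the exact permutation p was 0.0476. These are 2 of the 3 values under 0.05 among 66 exact tests, and neither is adjusted for that number.

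Hspa1a, whose reads can be confused with those of Hspa1b, was at 0.942 ± 0.311 on HFHS against 0.981 ± 0.281 on CNTL in WT (exact permutation p = 0.873) and at 0.897 ± 0.135 against 0.740 ± 0.232 in GPx4+/- (exact permutation p = 0.238; SD, n = 5). GPx4+/- CNTL replicates 1 and 2, high in atrial markers, were at 1.04 and 0.851, and the other GPx4+/- CNTL mice at 0.408 to 0.717. The GPx4+/- HFHS mice ran from 0.739 to 1.03. WT CNTL replicate 3, also high in atrial markers, was at 1.38 against 0.591 to 1.00 in the other WT CNTL mice. The part of atrial tissue in these values was not tested. For the sum of both genes, GPx4+/- HFHS mice had 1.72 ± 0.177 and GPx4+/- CNTL mice 1.30 ± 0.234 (exact permutation p = 0.0238), and WT HFHS mice had 1.97 ± 0.646 and WT CNTL mice 1.57 ± 0.331 (exact permutation p = 0.262). With the filter removed, limma gave Hspa1b a log2 fold change of 0.41, SE 0.109, adjusted p 0.0538 for HFHS over both genotypes, 0.50, SE 0.155, adjusted p 0.200 in WT and 0.32, SE 0.155, adjusted p 0.429 in GPx4+/-. The first of these is the smallest adjusted p of any member in any fit. For the sum it gave 0.27, SE 0.109, adjusted p 0.132 (limma). All these levels are near 1 scaled TPM.

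Across the 6 pairs of groups, members whose groups did not overlap numbered 1 of 10 for GPx4+/- HFHS against GPx4+/- CNTL. They numbered 0 of 10 for WT HFHS against WT CNTL (2.51% of genes), GPx4+/- CNTL against WT CNTL (0.645%), GPx4+/- HFHS against WT HFHS (0.51%), WT HFHS + Carnosine against WT HFHS (0.46%) and WT HFHS + Carnosine against WT CNTL (1.8%).

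The genotype comparison asked whether loss of a Gpx4 allele moved the set. On CNTL diet, 0 of 8 members were called (limma, 0.0501% of all genes), and 0 of 8 had an unadjusted p under 0.05 (6.29% of all genes). All 8 log2 fold changes of GPx4+/- against WT lay below 0 on this diet, from -0.20 (Hspb1) to -0.05 (Hsp90ab1), with a median of -0.08 against 0.00 for all genes. After quantile normalization 7 of 8 lay below 0. Hspb1 had an SE of 0.108 and Hsp90aa1 of 0.165 (-0.20, and -0.05 without GPx4+/- CNTL replicate 3), and the WT CNTL mice are shared with the diet comparison. Without WT CNTL replicate 3 the median of the 8 was -0.14. Hspb1 (-0.25) and Hspe1 (-0.13) then had an unadjusted p under 0.05 (limma, adjusted p 0.521 and 0.530). Without all 4 mice high in atrial markers the median was also -0.14, and Hspe1 alone (-0.16) had one (limma, adjusted p 0.694). Hsp90aa1 was at -0.33 there, with GPx4+/- CNTL replicate 3 kept. The 6.29% is from the full fit, and the shares of all genes in these settings are not given here. None of the 8 was called after adjustment in either setting (limma, adjusted p of at least 0.521). On HFHS diet, 0 of 8 were called (limma, 0.0501% of all genes) and 0 of 8 had an unadjusted p under 0.05 (4.56%), with values from -0.08 (Dnajb1) to 0.23 (Hsp90aa1). Over both diets, 0 of 8 were called (limma, 0.0584%), 0 of 8 had an unadjusted p under 0.05 (3.89%), and the 95% confidence intervals of all 8 stayed between -0.26 and 0.26.

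Carnosine was compared with HFHS diet alone in WT mice. No gene was called there by limma (0% of 11983 genes), 4.21% of genes had an unadjusted p under 0.05, and 0 of 8 members did. The largest log2 fold changes were those of Hsp90aa1, 0.24, SE 0.205, and Hsph1, 0.19, SE 0.203, followed by Hspd1, 0.11, SE 0.0647, and Hspa8, 0.10, SE 0.118 (limma, adjusted p of at least 0.947 for all 8 members). The 95% confidence intervals were -0.21 to 0.69 for Hsp90aa1, -0.25 to 0.64 for Hsph1 and -0.10 to 0.14 for Hsp90ab1. WT HFHS + Carnosine against WT CNTL gave 0 of 8 members called (limma, 0.668% of all genes) and 0 of 8 with an unadjusted p under 0.05 (13.6%), from -0.10 (Hspe1) to 0.23 (Hsph1). Without WT HFHS + Carnosine replicate 5 the values ran from -0.20 (Hspb1) to 0.06 (Dnajb1), with Hsph1 at 0.02. This comparison shares its WT CNTL mice with the diet comparison in WT.

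The carnosine means of Hsp90aa1, Hsph1, Hspa8 and Hspb1 rest on 1 mouse. Hsp90aa1 was at 63.1, 61.6, 61.6, 67.0 and 129 scaled TPM in the 5 WT HFHS + Carnosine mice and at 44.4, 67.6, 66.5, 73.4 and 60.8 in the 5 WT HFHS mice. Replicate 5 lay at 2.04 times the mean of the other 4 carnosine mice, which lay within the range of the WT HFHS mice. Hsph1 was at 20.4, 19.4, 23.7, 18.9 and 43.0, Hspa8 at 916, 971, 893, 962 and 1428 and Hspb1 at 185, 166, 193, 204 and 298 in the same mice. Replicate 5 was the highest of all 25 mice for each of these genes, at 2.09, 1.53 and 1.59 times the mean of the other 4 carnosine mice. Hsp90ab1, Hspd1 and Dnajb1 were also highest there, but at only 1.10, 1.10 and 1.12 times. Hspa1a, near 1 scaled TPM, was highest there too, at 1.62 times, and Hspa1b ranked 3 of 25 at 1.77 times. Without this mouse the carnosine log2 fold changes were 0.04 for Hsp90aa1, -0.02 for Hsph1, -0.02 for Hspa8 and -0.16 for Hspb1, and 0 of 8 members were called (limma).

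In all, replicate 5 held the highest value of the 25 mice in 8 of the 10 members (all but Hspa1b and Hspe1), in 14 of 60 other chaperone and co-chaperone genes (23.3%) and in 8.47% of all genes tested. Among the co-chaperones, Dnaja1, a J-domain protein, was at 51.4 scaled TPM in this mouse against 27.0 to 27.7 in the other 4, and Chordc1, an HSP90 co-chaperone, at 31.4 against 17.7 to 20.4. Fkbp5, of the same HSP90 co-chaperone list, was lowest of 25 at 10.2 against 13.5 to 43.6. Over the 60 genes the median ratio to the mean of the other 4 was 1.04, and 4 (6.67%) were lowest of 25. The same mouse stood apart in genes of the circadian clock and of temperature. Arntl, an activator of the clock, was at 6.60 against 1.12 to 2.19, and the clock repressor Per2 at 2.54 against 5.15 to 6.84. The cold-inducible Cirbp was at 19.9 against 27.4 to 30.4. Of the 15 listed clock- and temperature-linked genes, replicate 5 was highest in 4 and lowest in 10 of the 25 mice. Of 9 immediate early genes, which respond within minutes to many stimuli, it was highest in 0 and lowest in 0, with a sum of 98.3 that ranked 18 of 25, and its atrial marker sum was 99.4. The median ratio of these 9 genes to the mean of the other 4 carnosine mice was 1.03. Single genes differed, with Atf3 at 3.05 against 1.09 to 2.06 (rank 2 of 25) and Fos at 1.18 against 1.22 to 1.77 (rank 24). The part of what set these clock and temperature genes apart in the heat shock values was not tested.

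**Figure D3:**
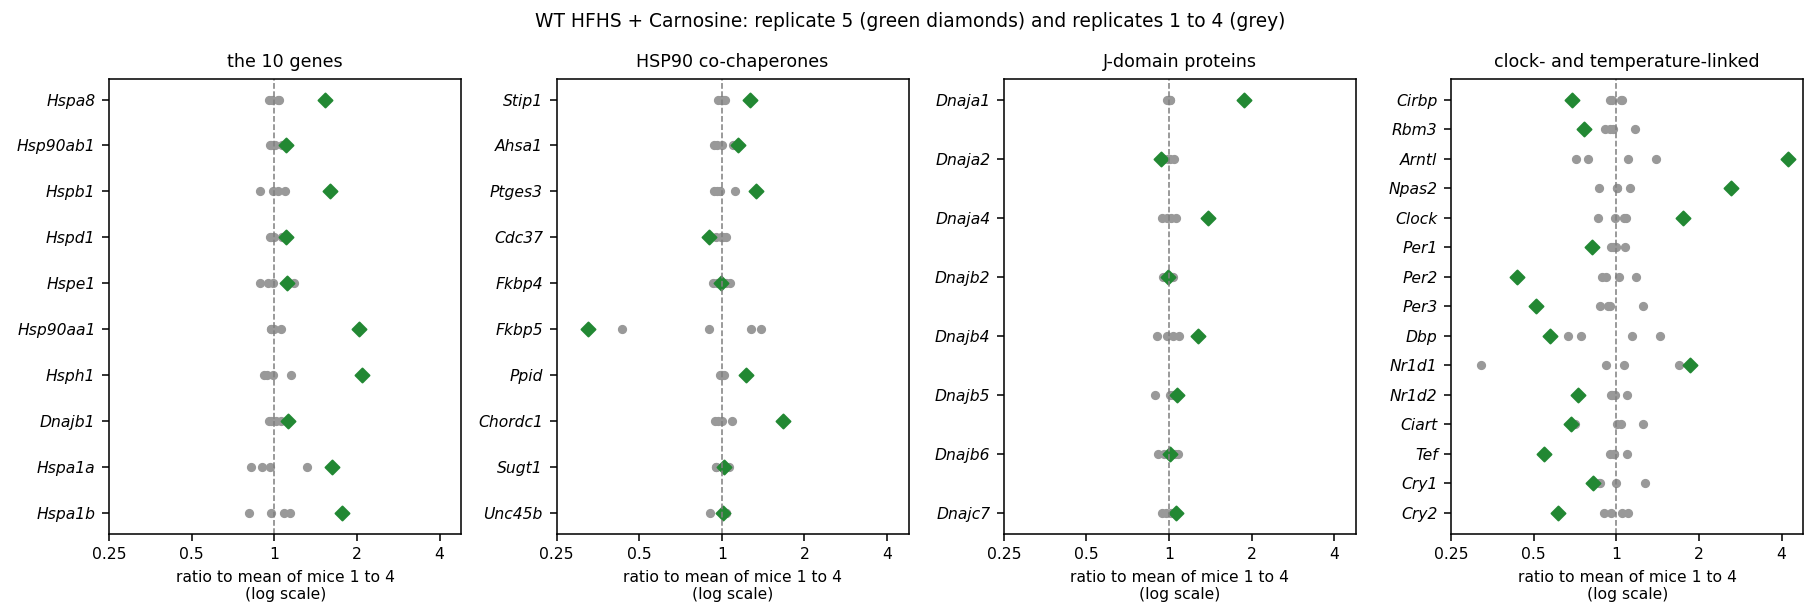
Ratio of each WT HFHS + Carnosine mouse to the mean of replicates 1 to 4 of that group (log axis), with replicate 5 as green diamonds and the other mice in grey, for the 10 heat shock genes, HSP90 co-chaperones, J-domain proteins, and clock- and temperature-linked genes. Replicate 5 lies near 2 for Hsp90aa1 and Hsph1 and near 1.1 for Hsp90ab1 and Hspd1, and below 1 for Cirbp, Per2 and most other clock genes.

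Partner genes of the set were described in the same fits. Of 60 other chaperone, co-chaperone and mitochondrial proteostasis genes in 8 lists, all tested, 5 were called higher and 0 lower in HFHS against CNTL in GPx4+/- (limma), where 3.34% of all genes were called. They were Hspb8 (0.40, SE 0.0709, adjusted p 0.00509), Bag3 (0.30, SE 0.0545, adjusted p 0.00545), Atf5 (0.47, SE 0.0958, adjusted p 0.0108), Bag2 (0.24, adjusted p 0.0331) and Hspb6 (0.24, adjusted p 0.0358; log2 fold changes, limma). Bag3 and Hspb8 form a complex that sends damaged muscle proteins to autophagy, Bag2 regulates HSP70, Hspb6 is a small heat shock protein of muscle, and Atf5 is a transcription factor of the mitochondrial unfolded protein response. Hspb8 was at 408, 385, 366, 388 and 395 scaled TPM in the GPx4+/- HFHS mice and 259, 315, 256, 329 and 322 in the GPx4+/- CNTL mice, and these groups did not overlap. Bag3 was at 134, 116, 132, 127 and 132 and 97.4, 105, 95.3, 109 and 112, again without overlap. The calls of Bag2 and Hspb6 were lost without the 4 mice high in atrial markers (adjusted p 0.0649 and 0.142, limma), and those of Hspb8, Bag3 and Atf5 were kept (adjusted p 0.0286, 0.0464 and 0.0471). On TPM as deposited none of the 5 was called, and all 5 log2 fold changes stayed above 0. Over 31 alternatives, Hspb8, Bag3 and Atf5 were called in 30 each, and Hspb6 and Bag2 in 19 each.

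Over both genotypes, 6 of the 60 rose and 1 fell on HFHS diet (limma, 8.33% of all genes called). Hspb8 rose by 0.32, Bag3 by 0.25, Atf5 by 0.39, Hspb6 by 0.20, Bag2 by 0.16 and Cct3, a subunit of the TRiC chaperonin, by 0.14 on the log2 scale, and Dnajc7, a J-domain protein, was at -0.12. The calls of Cct3 and Dnajc7 were held in 8 and 11 of 31 alternatives. In WT alone, 0 of 60 were called (limma), and the values were 0.24 for Hspb8 and 0.19 for Bag3 (adjusted p 0.0996 and 0.0939). The difference between genotypes was not called for any of them (interaction, limma, adjusted p of at least 0.691). In WT HFHS + Carnosine against WT CNTL, Hspb8 (0.29) and Hspa12a (0.27) were called higher (limma, 0.668% of all genes), and 0 of 60 were called in the other comparisons. These 2 calls held in 18 and 20 of 26 alternatives, and both were lost on TPM as deposited and with the replicate block. HFHS against CNTL in WT gave 0.24 for Hspb8 and 0.23 for Hspa12a, and HFHS + Carnosine against HFHS in WT gave 0.05 and 0.04. By list, counts for GPx4+/- were 0 of 7 other HSP70 and HSP110 genes, 0 of 8 J-domain genes, 2 of 7 HSP70 partner genes, 0 of 10 HSP90 co-chaperones, 2 of 6 other small heat shock proteins, 1 of 11 mitochondrial genes and 0 of 8 TRiC subunits. The median log2 fold change of the 60 genes was 0.04, that of the 8 members 0.09 and that of all genes 0.00.

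The heat shock factors were not called in any comparison (0 of 3, limma). Hsf1, the main activator of heat shock genes, was at 20.2 ± 1.58 for WT CNTL, 18.8 ± 1.36 for GPx4+/- CNTL, 19.5 ± 1.23 for WT HFHS, 19.8 ± 1.96 for GPx4+/- HFHS and 19.5 ± 1.25 for WT HFHS + Carnosine (scaled TPM, SD, n = 5). Hsf2 had 5.76 ± 0.586, 6.16 ± 0.906, 5.06 ± 0.406, 5.59 ± 0.774 and 5.68 ± 0.634 in the same order. Of the 14 tested clock- and temperature-linked genes, 4 fell and 0 rose in HFHS against CNTL in GPx4+/- (limma). They were the cold-inducible RNA-binding genes Cirbp (-0.48, SE 0.103, adjusted p 0.0145) and Rbm3 (-0.36, SE 0.0871, adjusted p 0.0314), and the clock genes Per1 (-0.40) and Cry2 (-0.24). Over 31 alternatives, Cirbp was called in 30, Rbm3 in 23, Per1 in 19 and Cry2 in 9. Over both genotypes 5 fell, with Cirbp at -0.40, Rbm3 at -0.34 and Ciart at -0.55. In WT alone none of the 14 was called, with Cirbp at -0.33 and Rbm3 at -0.32 (adjusted p 0.114 and 0.0790, limma). Of 8 tested immediate early genes, 0 were called in any diet comparison. Fibroblast markers (2 of 4 higher) and ventricular cardiomyocyte markers (1 of 6 lower) were also called over both genotypes, and the part of cell makeup in these values was not tested.

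**Figure D4:**
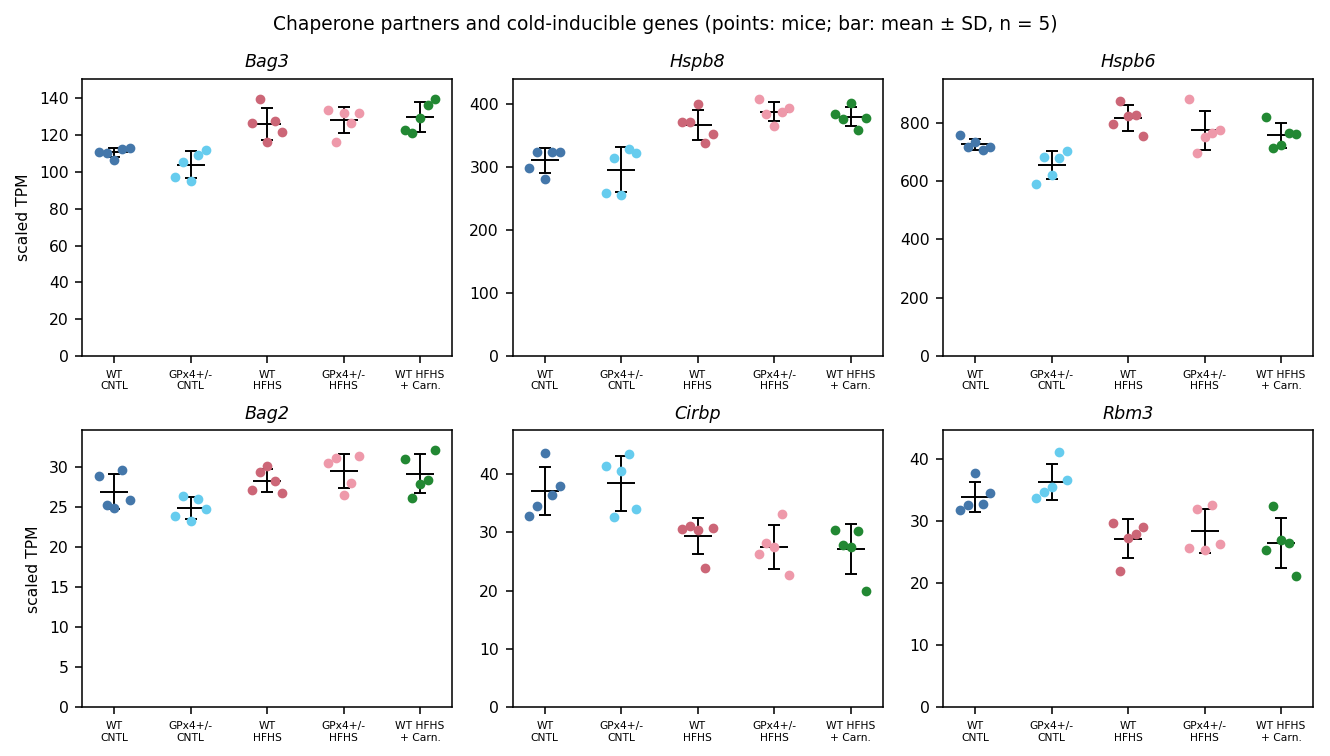
Scaled TPM (linear axes from 0) of the chaperone partners Bag3, Hspb8, Hspb6 and Bag2 and of the cold-inducible genes Cirbp and Rbm3 in the 5 groups, with a point per mouse and a bar for the mean ± SD (n = 5). The 3 HFHS groups lie above the 2 CNTL groups in mean for Bag3 and Hspb8, and below them for Cirbp and Rbm3.

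Co-variation was measured as the correlation between members of the deviations of the 25 mice from their group means. The chaperonin pair Hspd1 and Hspe1 had the highest correlation of the 45 pairs (Pearson's r = 0.81, permutation p = 0.000270, adjusted 0.0119, and Spearman's rho = 0.79, permutation p = 0.000510, adjusted 0.0153). These are the genes with overlapping promoter windows, and their counted exons overlap on opposite strands. Among the 45 pairs, 7 passed an adjusted permutation p of 0.05 with both measures. The other 6 were all of the pairs among Hspa8, Hsp90aa1, Hsph1 and Hspb1. Their r lay between 0.69 (Hspa8 and Hsp90aa1) and 0.76 (Hsph1 and Hspb1), with rho between 0.59 and 0.69.

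These 6 relations rest in part on 1 mouse. Without WT HFHS + Carnosine replicate 5 their r fell to between 0.42 and 0.60 and none passed. Their rho then lay between 0.36 (Hspa8 and Hsph1) and 0.62 (Hsph1 and Hspb1). The median r of the 45 pairs went from 0.29 to 0.04, and Hspd1 with Hspe1 alone passed (r = 0.79, adjusted permutation p = 0.0202). Without the 2 mice farthest from the median of the first gene of a pair, no pair passed, with r = 0.71 for Hspd1 and Hspe1 (adjusted permutation p = 0.115) and 0.30 to 0.63 for the other 6. Without the 4 mice high in atrial markers 3 pairs passed, which were Hsph1 with Hspb1, Hsp90aa1 with Hspb1, and Hspa1a with Hsp90aa1 (r = 0.81), while Hspd1 with Hspe1 did not (r = 0.75, adjusted permutation p = 0.0610). Hsp90aa1 and Hsp90ab1, the 2 HSP90 genes, had r = 0.20, and Hspa1a and Hspa1b had r = 0.33, neither passing. All libraries are shares of a total, which the members of a pair have in common.

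**Figure D5:**
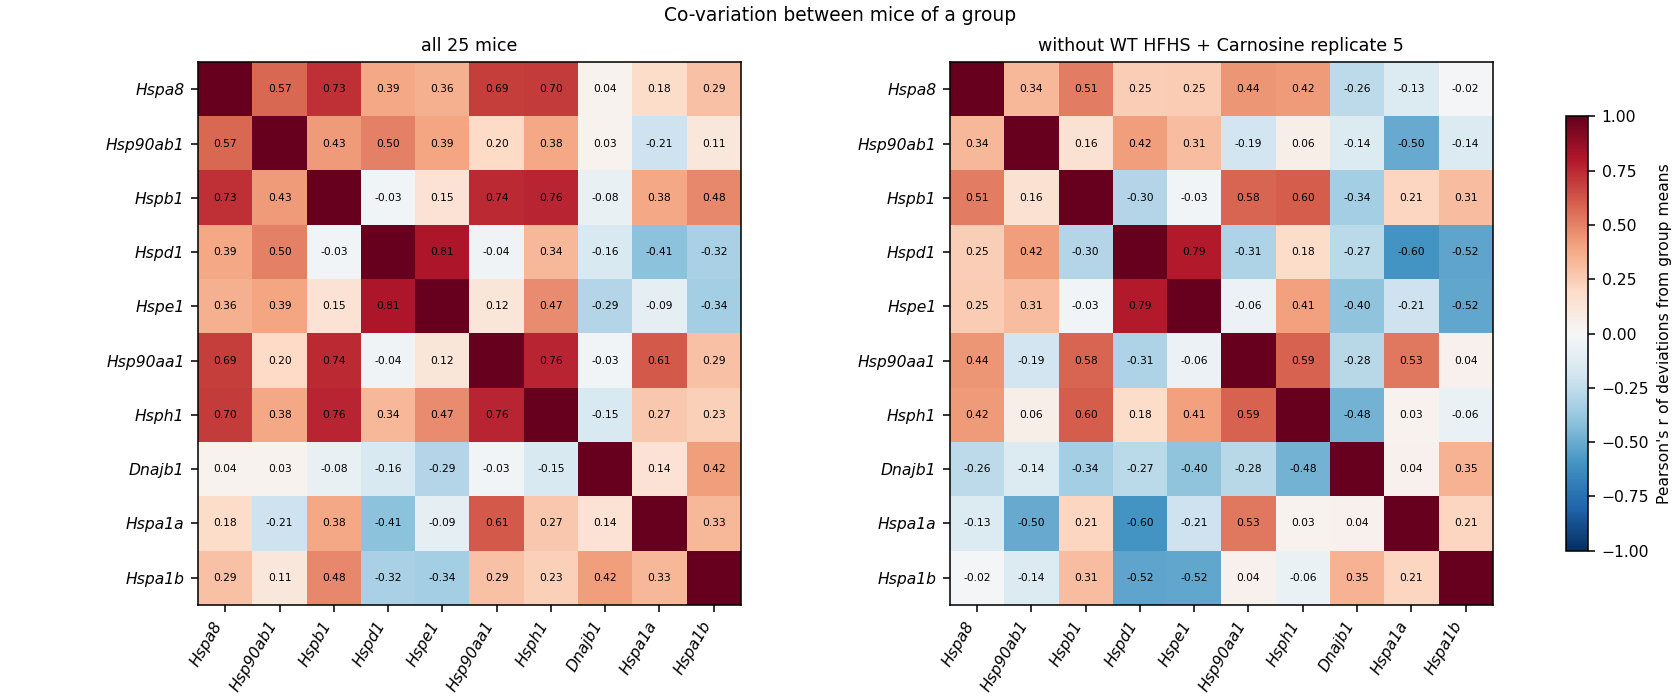
Pearson's r of deviations from group means for each pair of the 10 heat shock genes, over all 25 mice and without WT HFHS + Carnosine replicate 5, on a colour scale from -1 (blue) to 1 (red). The block of Hspa8, Hspb1, Hsp90aa1 and Hsph1 reads 0.69 to 0.76 over 25 mice and 0.42 to 0.60 without that mouse, and Hspd1 with Hspe1 reads 0.81 and 0.79.

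Outside the set, the genes whose deviations over the 25 mice were most like those of each member are given as a description, with no test. For Hspa8 they were Atp6v1b2 (r = 0.87), Stip1 (r = 0.86) and Klhl31 (r = 0.84), of which Stip1 encodes the adaptor that links HSP70 to HSP90. For Hsp90ab1 they were Prdx6 (r = 0.86), Sympk (r = 0.75) and Vcp (r = 0.74), where Vcp is an ATPase that extracts proteins for degradation. For Hspd1 they were Mmadhc (r = 0.85), Ndufv2 (r = 0.82) and Glrx2 (r = 0.81), and for Hspe1 Mrpl13 (r = 0.85), Ahsa1 (r = 0.83) and Isca2 (r = 0.83). Ndufv2 is a subunit of respiratory complex I, Mrpl13 a mitochondrial ribosomal protein, and Ahsa1 an activator of HSP90. For Hsp90aa1 they were Uck2 (r = 0.84), Palmd (r = 0.84) and Tubb2a (r = 0.84), for Hsph1 Relt (r = 0.85), Kif5b (r = 0.84) and Dffa (r = 0.82) and for Hspb1 Nt5dc3 (r = 0.86), Tubb2a (r = 0.86) and Tspan9 (r = 0.86). Tubb2a, a tubulin, stood among the 3 for both Hsp90aa1 and Hspb1. Without WT HFHS + Carnosine replicate 5 the r values of the genes listed for Hspa8, Hsp90aa1, Hsph1 and Hspb1 were lower. They ran from 0.66 (Klhl31 with Hspa8) to 0.82 (Atp6v1b2 with Hspa8). For Dnajb1 no gene reached r = 0.7, and Cybc1 (r = 0.67), Zfp697 (r = 0.67) and Rnf146 (r = 0.66) came nearest. For the other 7 members, between 0.0417% (Hsp90ab1) and 0.776% (Hsph1) of the tested genes had r above 0.7.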

How the data were processed

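Myocardial mRNA of 25 mice was analysed in 5 groups of 5. TPM of each transcript in each library were deposited by the authors. The submitters' processing notes name kallisto 0.43.1, sleuth 0.30.0 and build GRCm38, while the paper's methods describe STAR and gene counts. Columns were matched to mice by the library name in the header. TPM keeps no read depth, so no counting error is given. Of 119215 transcripts, 116772 matched GENCODE M21. TPM were summed per gene and scaled by median ratios over 11879 genes (factors 0.865 to 1.16). The 11983 genes whose mean over the 25 libraries reached 1 scaled TPM were tested with limma 3.58.1 in R 4.3.3 on log2(scaled TPM + 0.5), with Benjamini-Hochberg adjustment over all of them. Log2 fold changes are therefore on the log2(value + 0.5) scale, which understates changes of low genes. The 20 mice without carnosine were fitted as 4 groups, carnosine against HFHS in the 10 WT HFHS mice, and carnosine against CNTL in the 15 WT mice. Single values were compared by two-sided exact permutation tests, and correlations by 100000 permutations within groups. Transcripts were aligned with blastn 2.17.0. The scripts were tested on simulated data. The members and lists were chosen with earlier results of these data known. Named were all members, Gpx4, Hsf1, Hsf2, partner genes with an adjusted p under 0.05, and the 3 genes most correlated with each member; genes named for WT HFHS + Carnosine replicate 5 and the marker lists of single mice were chosen after their values were seen. As alternatives, the pseudocount was set to 0.1, the filter was removed or raised to 5, scaling was replaced by TPM as deposited or by quantile normalization, and the fit took a replicate block, array weights, all mice in 1 fit, protein coding transcripts only, Hspa1a and Hspa1b summed, and each mouse left out. Replicate numbers come from the labels and number different mice.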

Additional observations from a re-analysis of the deposited data

Results flagged for a closer look

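Within each group of 5, the gap of the highest or lowest mouse to the next, as a share of the whole range, was searched in 115 groups of values, and 11 were above the 95% critical value for 5 samples. Chance gives about 1 in 20, or about 5.75 of 115. For the members, WT HFHS + Carnosine replicate 5 was far above the other 4 mice in Hsp90aa1 (gap of 0.920 of the range), Hspa8 (0.853), Hsph1 (0.802) and Hspb1 (0.712). WT CNTL replicate 3, with an atrial marker sum of 4561, was far below its group in Hspa8 (0.743), Hspe1 (0.742) and Hspd1 (0.732).

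Outside the members, Cirbp was far below its group in WT HFHS replicate 4 (0.915) and in WT HFHS + Carnosine replicate 5 (0.714). Hspa12a was far above its group in GPx4+/- CNTL replicate 3 (0.862) and far below it in WT HFHS + Carnosine replicate 5 (0.802). WT HFHS replicate 4, low in Cirbp at 24.0 scaled TPM, had the highest Hspa1b of the 25 mice, at 1.48, and the lowest Hspd1, at 168. Its smooth muscle marker sum was 528, against at most 249.6 in the other mice, its fibroblast marker sum of 517 was the highest of the 25, and it was highest in 8.31% of all genes tested. The part of these in its values was not tested.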

How the results depend on the processing

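The count of members called was 0 in each of the 9 comparisons under every alternative and with each mouse left out (lowest 0, highest 0; 263 counts), and the replicate block also left it at 0. Of 50 same-number correlations of deviations, 10 were above 0.1 (range -0.34 to 0.23). Mice of different number were not compared, so whether replicate numbers pair the mice was not decided. With the replicate block, limma called 68 instead of 142 genes in HFHS against CNTL in WT, 306 instead of 400 in GPx4+/- and 8 instead of 80 in WT HFHS + Carnosine against WT CNTL. Of 2095 member fold changes under alternatives, 30 moved by more than 1 SE. The count of the 8 with an unadjusted p under 0.05 ranged over the alternatives from 0 to 3 for the interaction, 0 to 2 for HFHS in GPx4+/-, over both genotypes and for genotype on CNTL, and 0 to 1 for HFHS in WT and the 2 carnosine comparisons. The share of all genes under that p in each alternative is not given here, so these counts have no background beside them. The count of pairs of members that co-vary went from 7 to 0 without the 2 farthest mice, to 1 without WT HFHS + Carnosine replicate 5 and to 3 without the 4 mice high in atrial markers, the last 2 settings chosen after seeing the data. All-gene counts moved by over 1.5 times in HFHS against CNTL in WT (142, with 38 on TPM as deposited, 43 with no filter, 405 with array weights and 36 to 202 with each mouse left out, the lowest without WT CNTL replicate 2), in GPx4+/- (400, with 235 with no filter and 191 without GPx4+/- HFHS replicate 5) and in WT HFHS + Carnosine against WT CNTL (80, with 26 with no filter, 38 on TPM as deposited, 265 with array weights, 141 with all 25 mice in 1 fit, and 26 without WT CNTL replicate 2 to 155 without WT HFHS + Carnosine replicate 4). In GPx4+/- 65.3% of calls were higher, against 8.73% on TPM as deposited, and over both genotypes 56.2% against 20.1%. Of 703 partner and clock gene results under alternatives, 569 kept the call and 134 lost it. TPM hold no depth, so the precision at low levels, Hspa1a and Hspa1b above all, is unknown. The cause of each of these shifts was not tested.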
